A study of Homo sapiens with 6 samples.

Results

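The mitochondrial carriers are the SLC25 family of solute transporters, and their mRNA was compared between corilagin-treated and control leukaemia cells. Members were all protein-coding genes whose symbol begins with SLC25A, together with UCP2, whose mean over the 6 libraries was at least 1 FPKM (fragments scaled by gene length and by the library's total). Of the 20036 genes listed, 49 belonged to the family by name and 35 of these reached that mean. At the edge of the filter, SLC25A41 was kept with a mean of 1.09 FPKM and SLC25A26 was left out with 0.998 FPKM. The cells were MV411, a long-established line grown from a human monocytic leukaemia, with a KMT2A fusion and an internal duplication in FLT3, labelled wild type. They received corilagin, an ellagitannin made by plants, or the solvent DMSO for 48 h, with 3 RNA-seq libraries in each group. No label used here states its dose. Whether the 3 libraries of a group were grown as separate cultures is not labelled either, so the p-values speak only for the spread from library to library, part or all of which may be technical.

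Mitochondrial carriers are small proteins of the inner membrane, built from repeats of a common fold, that move one metabolite in and usually another out. They supply the matrix with ADP, phosphate, amino acids, dicarboxylates, cofactors, iron and glutathione, and they export ATP, citrate and aspartate to the cytosol. All are encoded in the nucleus and enter the membrane through the TOM complex, the small TIM chaperones and the TIM22 insertase. In proliferating blood cells the family is known for feeding oxidative phosphorylation, nucleotide synthesis and haem synthesis. A few relatives lie elsewhere, such as SLC25A17 in peroxisomes and SLC25A46 in the outer membrane.

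The libraries held 17776956 to 21640689 fragments, and a member rested on 26 to 16237 of them in a library. DMSO replicate 3 stood apart from DMSO replicates 1 and 2. Genes of low GC content (transcripts at or below 39.0% GC) deviated from their gene means by -0.50 and -0.43 on the log2 scale in DMSO replicates 1 and 2, by 0.24 in DMSO replicate 3 and by 0.20 to 0.26 in the corilagin libraries. Genes at or above 60.7% GC deviated the other way, by 0.22 in DMSO replicates 1 and 2, -0.09 in DMSO replicate 3 and -0.15 to -0.10 with corilagin. The main results are therefore given in all 6 libraries, with the GC trend removed from every library, and against DMSO replicate 3 alone, where the lone library is assumed to vary like the corilagin libraries. Levels of 7 genes listed as markers of this line were read, which alone cannot identify the line. The mean was above 1 FPKM for 7 of 7 (HOXA9, MEIS1, FLT3, CD33, MPO, LYZ and PTPRC). MPO just reached this at 1.03 FPKM, with 0.321 to 0.710 FPKM under corilagin. The 7 summed to 406 to 414 FPKM under corilagin and 297 to 390 FPKM under DMSO. By limma, FLT3 and MEIS1 were higher with corilagin as deposited (log2 differences 0.53 and 0.37). The monocyte enzyme LYZ and MPO, an enzyme of myeloid granules that was low at 0.321 to 1.93 FPKM, were lower (-0.66 and -0.81). With the GC trend removed MEIS1 did not pass (0.09, limma adjusted p = 0.244), and FLT3, LYZ and MPO were at 0.33, -0.95 and -0.63. Against DMSO replicate 3 alone FLT3, MEIS1, LYZ and MPO were at 0.25, 0.21, -0.75 and -0.62. Levels of 14 genes listed as markers of other cell types were also read, which alone cannot show that such cells were present. Of these, 6 were at 0 in every library (among them MS4A1, HBB, PPBP, EPCAM and COL1A2) and 4 had a mean above 1 FPKM (among them ITGA2B, KRT18 and PECAM1). PECAM1, the most abundant of the 14, was at 19.8 to 21.3 FPKM with corilagin and 15.2 to 16.3 FPKM with DMSO. It was higher (log2 difference 0.35, limma adjusted p = 0.0217) and made up most of the sum of the 14. The 14 summed to 27.5 to 30.6 FPKM with corilagin and 23.7 to 24.7 FPKM with DMSO, and the part of these markers in the results was not tested. In bulk RNA, fewer cells of a type and less RNA per cell cannot be told apart.

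After 48 h of corilagin 5 carriers were lower and 1 was higher. The lower ones were the ornithine carrier SLC25A15, the aspartate/glutamate carrier SLC25A13, the glutathione carrier SLC25A39, the dicarboxylate carrier SLC25A10 and the uncoupling protein UCP2. The higher one was SLC25A40, the close relative of SLC25A39. The test was limma on log2(FPKM + 1), with Benjamini-Hochberg adjustment over the 9868 genes that reached 1 FPKM on average and a threshold of 0.05. The 5 lower members were 14.3% of the 35, beside 13.5% of all genes tested, and the 1 higher member was 2.86%, beside 11.9%. In either direction 17.1% of the members and 25.4% of all genes passed, so the count of lower carriers stood near the background. Of the 35 log2 differences 14 were positive and 21 negative, between -0.83 and 0.68, with a median of -0.04 beside 0.03 for all genes tested, and the members' median was 0.06 when the libraries were scaled to equal sums and 0.02 with the GC trend removed and library means kept.

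**Figure D1:**
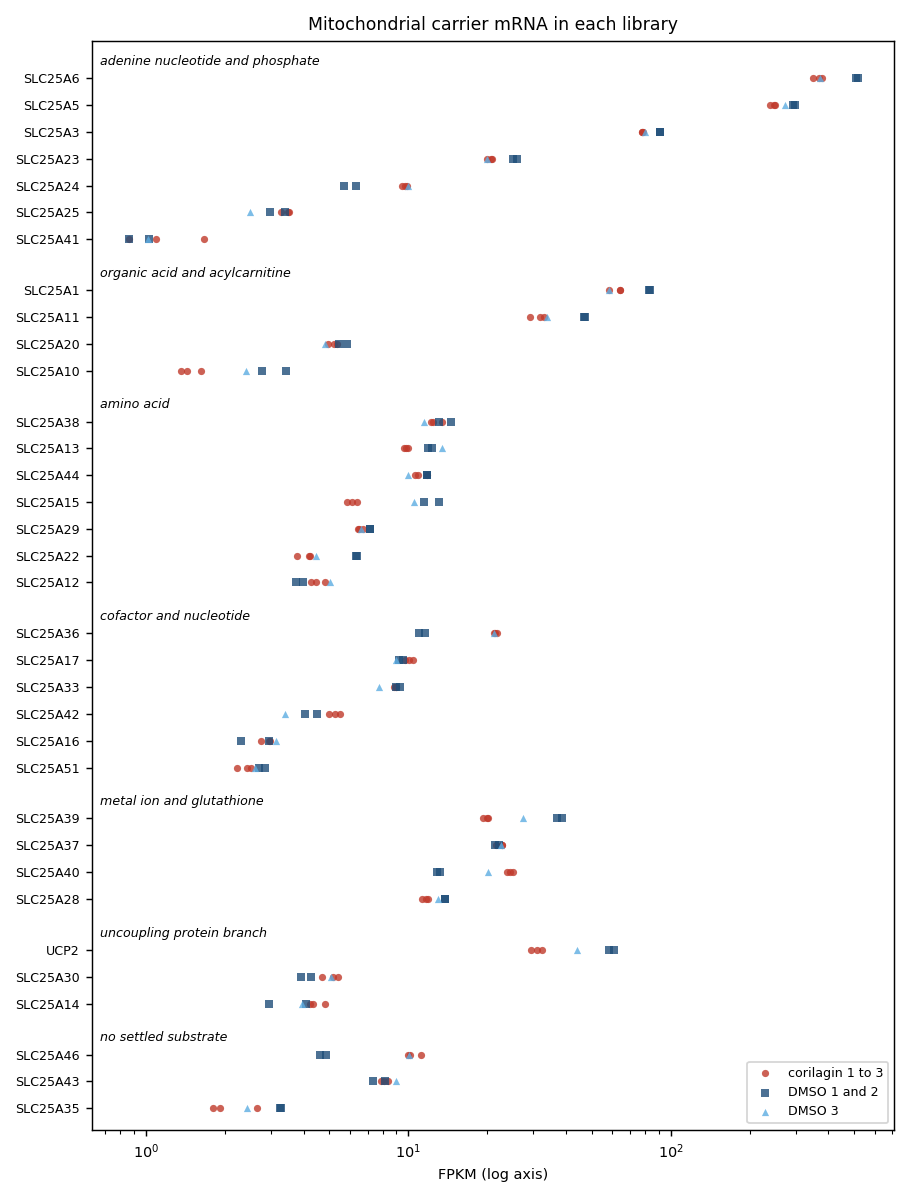
FPKM on a log axis for 34 of the 35 carriers, grouped by substrate class. Circles are the 3 corilagin libraries, squares DMSO replicates 1 and 2, and triangles DMSO replicate 3. SLC25A6 and SLC25A5 lie far to the right of the others, and for SLC25A36, SLC25A46 and SLC25A24 the triangle sits with the circles and away from the squares.

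With the GC trend removed, 10 members were lower (28.6%, beside 23.0% of all genes tested) and 2 were higher (5.71%, beside 21.4%), so that 12 of 35 passed beside 44.4% of all genes. Of the 6 calls, 5 remained and that of SLC25A40 was lost. In addition, carriers such as SLC25A3, SLC25A5, SLC25A11 and SLC25A22 were lower while SLC25A25 and SLC25A42 were higher. Against DMSO replicate 3 alone all 6 calls stayed, with 4 members higher beside 19.4% of all genes and 6 lower beside 18.6%, which is 10 of 35 beside 38.0% in either direction. When the mean level of each library was kept as the GC trend was removed, 3 were higher beside 26.1% and 8 lower beside 18.5%, or 11 of 35 beside 44.7%. Without DMSO replicate 3 the counts were 8 higher, beside 40.8% of all genes, and 15 lower, beside 36.5%. All 3 corilagin values lay above all 3 DMSO values for 5 members (14.3%, beside 25.0% of all genes) and below them for 12 members (34.3%, beside 23.3%).

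**Figure D2:**
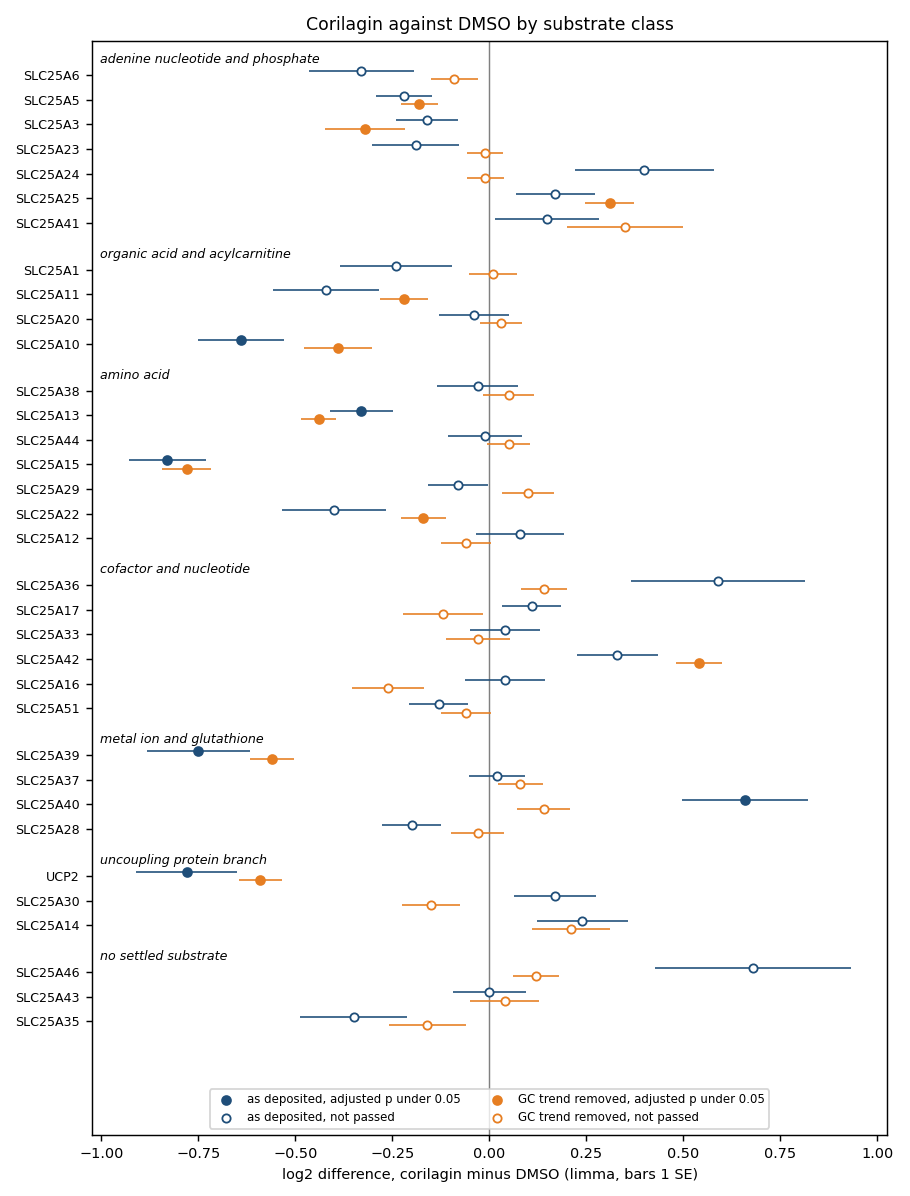
Log2 difference between corilagin and DMSO (limma, bars 1 SE) for 34 of the 35 carriers, by substrate class, as deposited (blue) and with the GC trend removed (orange). Filled points passed the adjusted threshold of 0.05. SLC25A15, SLC25A39, UCP2, SLC25A10 and SLC25A13 are filled on the left in both versions, and SLC25A40 is filled only in the deposited version.

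Of the amino acid carriers, SLC25A15 and SLC25A13 were lower. SLC25A15 (ENSG00000102743, GRCh38 chromosome 13, 40789412 to 40810111, plus strand) exchanges cytosolic ornithine for matrix citrulline and so joins the cytosolic and matrix parts of the urea cycle. It was at 6.37, 6.12 and 5.85 FPKM with corilagin and at 13.1, 11.5 and 10.5 FPKM with DMSO. The groups did not overlap, and DMSO replicate 3 was the lowest of the controls. The corilagin mean of 6.11 ± 0.261 (SD, n = 3) was 0.523 times the DMSO mean of 11.7 ± 1.35, a log2 difference of -0.83 (SE 0.10, limma adjusted p = 0.00399). SLC25A15 was lower under every alternative run: -0.78 with the GC trend taken out (limma adjusted p = 1.24e-04), -0.69 against DMSO replicate 3 alone (limma adjusted p = 5.40e-05), and with each library left out in turn (highest limma adjusted p = 0.0357). The annotation names 5 pseudogenes after it, with which reads may be shared.

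SLC25A13 (ENSG00000004864, chromosome 7, 96120220 to 96322147, minus strand) and SLC25A12 are the calcium-regulated aspartate/glutamate carriers of the malate-aspartate shuttle, known as citrin and aralar. SLC25A13 was at 9.68, 9.96 and 9.78 FPKM with corilagin and at 11.9, 12.3 and 13.5 FPKM with DMSO. Here DMSO replicate 3 was the highest control, farther from the corilagin values than the other two, and the groups did not overlap. The mean was 0.779 times that of DMSO (log2 difference -0.33, SE 0.0815, limma adjusted p = 0.0303), and the difference was larger with the GC trend taken out (-0.44, limma adjusted p = 3.09e-04) and against DMSO replicate 3 alone (-0.43, limma adjusted p = 3.83e-04). The call was lost without any 1 of the libraries other than DMSO replicate 3 (limma adjusted p from 0.0656 to 0.126), and with libraries scaled to equal sums (-0.22, limma adjusted p = 0.117). SLC25A12 was at 4.47, 4.25 and 4.81 FPKM with corilagin and at 3.74, 3.97 and 5.05 FPKM with DMSO, and the groups overlapped (log2 difference 0.08, limma adjusted p = 0.612).

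The other 4 amino acid carriers did not pass in the 6 libraries. The most abundant was SLC25A38, which imports glycine for haem synthesis, at 12.2, 13.4 and 12.4 FPKM with corilagin and 13.1, 14.6 and 11.5 FPKM with DMSO, in overlapping groups (log2 difference -0.03). The branched-chain amino acid carrier SLC25A44 and the basic amino acid carrier SLC25A29 had log2 differences of -0.01 and -0.08. The glutamate carrier SLC25A22 was at 3.78 to 4.21 FPKM with corilagin and 4.44 to 6.41 FPKM with DMSO (log2 difference -0.40, limma adjusted p = 0.0642), and with the GC trend removed it was lower by a smaller amount (-0.17, limma adjusted p = 0.0494). Over the 7 amino acid carriers limma called 2 lower and none higher as deposited (28.6% lower, beside 13.5% of all genes, with none higher at an unadjusted p under 0.05 or by limma-voom). There were 3 lower with the GC trend removed (42.9%, beside 23.0%) and 2 lower against DMSO replicate 3 (28.6%, beside 18.6%). Without any 1 library other than DMSO replicate 3, SLC25A15 was the 1 call (14.3% lower, beside 1.78 to 4.89% of all genes). The median log2 difference was -0.08, or 0.03 with libraries scaled to equal sums.

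Among the organic acid and acylcarnitine carriers, SLC25A10 was lower. SLC25A10 (ENSG00000183048, chromosome 17, 81712236 to 81721016, plus strand) exchanges malate or succinate for phosphate. It was a low transcript, at 1.36, 1.44 and 1.63 FPKM with corilagin and 2.78, 3.42 and 2.40 FPKM with DMSO, without overlap, and DMSO replicate 3 was the lowest control. These values rest on 77 fragments in corilagin replicate 1 and 112 in DMSO replicate 3. The corilagin mean was 0.515 times the DMSO mean (log2 difference -0.64, SE 0.111, limma adjusted p = 0.0117), a smaller -0.39 with the GC trend taken out (limma adjusted p = 0.00892) and -0.46 against DMSO replicate 3 alone (limma adjusted p = 0.00439). The call was lost without any 1 corilagin library (limma adjusted p from 0.0549 to 0.0679). Its exons share 46.6% of their bases with AC139530.2, a gene on the same strand, so how the reads were divided between them is uncertain.

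The citrate carrier SLC25A1 was the most abundant of this class and exports citrate for cytosolic acetyl-CoA. It was at 64.4, 64.1 and 58.2 FPKM with corilagin and at 82.5, 83.2 and 58.3 FPKM with DMSO, where DMSO replicate 3 sat with the corilagin libraries (log2 difference -0.24, limma adjusted p = 0.218, and 0.01 with the GC trend removed). The oxoglutarate/malate carrier SLC25A11, the partner of the aspartate/glutamate carriers in the malate-aspartate shuttle, was at 29.2 to 33.0 FPKM with corilagin and at 33.9 to 47.3 FPKM with DMSO. Its log2 difference of -0.42 did not pass (limma adjusted p = 0.0619), -0.22 passed with the GC trend taken out (limma adjusted p = 0.0204), and -0.11 against DMSO replicate 3 alone did not (limma adjusted p = 0.211). The carnitine/acylcarnitine carrier SLC25A20, which brings fatty acids to beta-oxidation, had overlapping groups and a difference of -0.04. The class median over 4 members was -0.33 in the 6 libraries, -0.11 with the GC trend removed and -0.01 against DMSO replicate 3 alone.

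The glutathione carriers SLC25A39 and SLC25A40, which bring glutathione into the matrix, moved in opposite directions in the 6 libraries. SLC25A39 (ENSG00000013306, chromosome 17, 44319625 to 44324870, minus strand) was at 20.0, 19.3 and 20.1 FPKM with corilagin and 38.7, 37.0 and 27.5 FPKM with DMSO. The groups did not overlap, and DMSO replicate 3 was the lowest control. Its mean was 0.576 times that of DMSO (19.8 ± 0.426 against 34.4 ± 6.05, SD, n = 3; log2 difference -0.75, SE 0.132, limma adjusted p = 0.0119), with -0.56 after the GC trend was removed (limma adjusted p = 3.08e-04) and -0.45 against DMSO replicate 3 alone (limma adjusted p = 1.22e-04). The call was lost without any 1 corilagin library (limma adjusted p from 0.0630 to 0.0652) and without DMSO replicate 2 (limma adjusted p = 0.0560).

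SLC25A40 (ENSG00000075303, chromosome 7, 87833568 to 87876357, minus strand) was at 23.8, 25.1 and 24.5 FPKM with corilagin and 13.2, 12.9 and 20.1 FPKM with DMSO. The groups did not overlap, but DMSO replicate 3 lay nearer to the corilagin libraries than to the other controls. The corilagin mean was 1.59 times the DMSO mean (log2 difference 0.66, SE 0.162, limma adjusted p = 0.0290). The difference was 0.14 with the GC trend taken out (limma adjusted p = 0.132), 0.19 when library means were kept as well (limma adjusted p = 0.0268), 0.27 against DMSO replicate 3 alone (limma adjusted p = 0.00296) and 0.85 without it. The call was also lost without any 1 of the other 5 libraries (limma adjusted p from 0.0890 to 0.114) and with no filter on low values (limma adjusted p = 0.0507). At 34.2% GC this transcript lies in the range where DMSO replicates 1 and 2 read low, whereas SLC25A39 is at 59.4% GC, in the upper range of the members. The annotation names 2 pseudogenes after SLC25A39 and none after SLC25A40.

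The iron carriers of the same class, mitoferrin 1 (SLC25A37) and mitoferrin 2 (SLC25A28), deliver iron for haem and iron-sulphur clusters. SLC25A37 was at 22.7, 22.8 and 21.6 FPKM with corilagin and 21.5, 22.2 and 22.5 FPKM with DMSO, in overlapping groups (log2 difference 0.02, limma adjusted p = 0.842). SLC25A28 was at 11.3, 11.9 and 11.7 FPKM with corilagin and 13.8, 13.8 and 13.0 FPKM with DMSO, without overlap, and did not pass (log2 difference -0.20, limma adjusted p = 0.0810, and -0.03 with the GC trend removed). The median over the 4 members of this class was -0.09 as deposited and 0.02 with libraries scaled to equal sums.

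UCP2 (ENSG00000175567, chromosome 11, 73974667 to 73983307, minus strand) belongs to the uncoupling protein branch, and has been described as an exporter of C4 dicarboxylates from mitochondria as well as a regulator of the proton gradient. It was at 31.1, 32.5 and 29.3 FPKM with corilagin and at 60.7, 58.5 and 44.0 FPKM with DMSO. No library overlapped, and DMSO replicate 3 was again the lowest control. The mean was 0.569 times that of DMSO (31.0 ± 1.64 against 54.4 ± 9.07, SD, n = 3; log2 difference -0.78, SE 0.13, limma adjusted p = 0.0102), -0.59 with the GC trend taken out (limma adjusted p = 2.19e-04) and -0.50 against DMSO replicate 3 alone (limma adjusted p = 1.44e-04). The call was lost without any 1 corilagin library (limma adjusted p from 0.0529 to 0.0632). SLC25A14 and SLC25A30, relatives of less settled function, were far lower in level at 2.94 to 4.82 FPKM and 3.92 to 5.39 FPKM across the 6 libraries. Their log2 differences of 0.24 and 0.17 did not pass (limma adjusted p = 0.153 and 0.238), and that of SLC25A30 was -0.15 with the GC trend removed. The median of the branch was accordingly 0.17 as deposited and -0.15 with the trend removed.

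**Figure D3:**
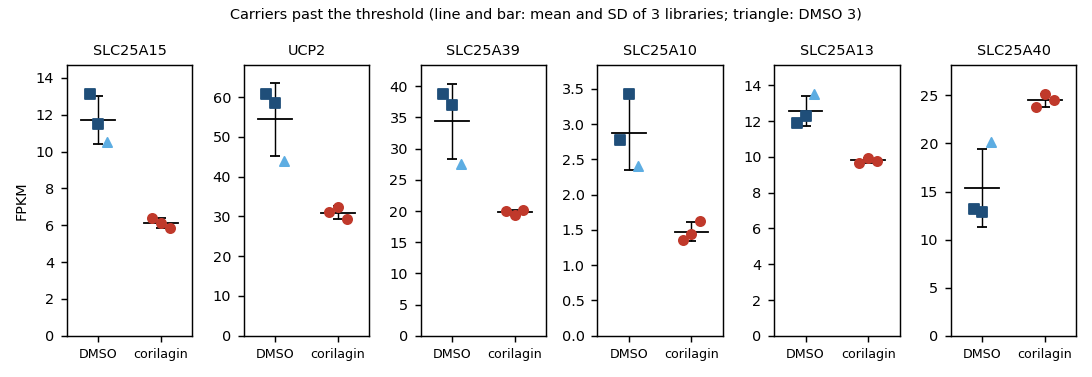
FPKM in each library of the 6 carriers that passed, with the mean and SD of 3 libraries per group on an axis from 0. Circles are corilagin, squares DMSO replicates 1 and 2, and the triangle DMSO replicate 3. No corilagin point reaches the range of the DMSO points, and the triangle is the DMSO point nearest to corilagin for every gene but SLC25A13.

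The adenine nucleotide and phosphate carriers were the most abundant. None of the 7 passed limma as deposited (beside 25.4% of all genes), and none passed limma-voom. At an unadjusted p under 0.05, 2 were lower, with no share of all genes given for that threshold. The members' summed FPKM was 1103, 1097 and 1052 with corilagin and 1360, 1377 and 1136 with DMSO. The ADP/ATP carriers, which exchange matrix ATP for cytosolic ADP, made up 56.5% of the members' summed FPKM with corilagin and 58.3% with DMSO. SLC25A6 was at 379, 368 and 349 FPKM with corilagin and at 508, 518 and 371 FPKM with DMSO, with DMSO replicate 3 inside the corilagin range (log2 difference -0.33, limma adjusted p = 0.0994, and -0.09 with the GC trend removed). SLC25A5 was at 251, 249 and 239 FPKM with corilagin and at 294, 298 and 272 FPKM with DMSO, without overlap. Its log2 difference of -0.22 did not pass in the 6 libraries (limma adjusted p = 0.0574), but -0.18 with the GC trend taken out (limma adjusted p = 0.0164) and -0.14 against DMSO replicate 3 alone (limma adjusted p = 0.0254) did. The annotation names 9 pseudogenes after SLC25A5 and 6 after SLC25A6, with which reads may be shared. SLC25A4, the isoform of heart and muscle, was at 0.186 to 0.538 FPKM. SLC25A6 supplied 60.1, 59.6 and 59.4% of the ADP/ATP carrier FPKM with corilagin and 63.3, 63.5 and 57.6% with DMSO, a difference of -1.75 percentage points that was 2.08 against DMSO replicate 3 alone (exact permutation test, 2-sided p = 0.400, n = 3 per group).

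The phosphate carrier SLC25A3, which feeds ATP synthase with phosphate, was at 77.8, 78.7 and 77.6 FPKM with corilagin and 91.3, 91.0 and 80.0 FPKM with DMSO. The groups did not overlap, with a log2 difference of -0.16 (limma adjusted p = 0.157), and -0.32 with the GC trend taken out (limma adjusted p = 0.0393), but -0.03 against DMSO replicate 3 alone. Of the calcium-regulated ATP-Mg/phosphate carriers, which set the matrix adenine nucleotide pool, SLC25A23 was at 19.9 to 26.1 FPKM and SLC25A24 at 5.70 to 9.95 FPKM, both with overlap. SLC25A24 was at 9.50 to 9.94 FPKM with corilagin, 5.70 and 6.32 FPKM in DMSO replicates 1 and 2, and 9.95 FPKM in DMSO replicate 3. SLC25A25 was at 3.27, 3.51 and 3.49 FPKM with corilagin and 3.40, 2.97 and 2.50 FPKM with DMSO, and its log2 difference of 0.17 as deposited was 0.31 with the GC trend taken out (limma adjusted p = 0.00620). SLC25A41 was near the filter at 0.862 to 1.67 FPKM. The class median of -0.16 became -0.01 once the GC trend was removed.

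Of the 7 cofactor and nucleotide carriers none passed limma or limma-voom in the 6 libraries, where 25.4% of all genes passed limma. At an unadjusted p under 0.05 there were 2 higher and 1 lower, with no share of all genes given for that threshold. The most abundant was SLC25A36, a pyrimidine nucleotide carrier, at 21.3, 21.8 and 21.5 FPKM with corilagin and 11.0, 11.6 and 21.2 FPKM with DMSO. DMSO replicate 3 was thus level with the corilagin libraries, and the log2 difference of 0.59 (limma adjusted p = 0.0842) was 0.02 against that library alone. The other pyrimidine nucleotide carrier, SLC25A33, was at 8.84 to 8.98 FPKM with corilagin and 7.74 to 9.27 FPKM with DMSO. SLC25A42, a carrier of coenzyme A, was at 5.49, 5.0 and 5.25 FPKM with corilagin and 4.49, 4.04 and 3.38 FPKM with DMSO, without overlap. Its log2 difference of 0.33 did not pass (limma adjusted p = 0.0537), and it was higher with the GC trend taken out (0.54, limma adjusted p = 4.33e-04), against DMSO replicate 3 alone (0.51, limma adjusted p = 6.00e-04) and with equal library sums.

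The NAD+ carrier SLC25A51 was at 2.23 to 2.51 FPKM with corilagin and 2.60 to 2.85 FPKM with DMSO (log2 difference -0.13), and the peroxisomal SLC25A17 was at 9.76 to 10.4 FPKM and 9.00 to 9.54 FPKM (0.11). Neither passed although the groups did not overlap. SLC25A16, which has been linked to coenzyme A, was at 2.30 to 3.13 FPKM in overlapping groups. The class medians did not keep one sign: over the 7 members the median was 0.04 as deposited, -0.06 with the GC trend removed and 0.02 against DMSO replicate 3 alone.

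The last 3 members have no settled substrate in the inner membrane. None passed limma (beside 25.4% of all genes) or limma-voom. At an unadjusted p under 0.05 there were 1 higher and 1 lower, with no share of all genes given for that threshold. SLC25A46, an outer membrane protein of mitochondrial dynamics, had the largest positive difference of the family as deposited (log2 0.68, limma adjusted p = 0.0798). It was at 10.0, 11.2 and 10.2 FPKM with corilagin and at 4.61, 4.85 and 10.1 FPKM with DMSO. DMSO replicate 3 lay within the corilagin range, and the difference from that library alone was 0.04. SLC25A43 was at 8.06, 7.87 and 8.39 FPKM with corilagin and 7.35, 8.13 and 9.00 FPKM with DMSO. SLC25A35 was at 1.80 to 2.66 FPKM and 2.42 to 3.27 FPKM, and 33.2% of its exon bases lie opposite RANGRF. No source used here says that the libraries kept strand, so reads from the opposite gene may be counted in it.

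The members' differences followed the GC content of their transcripts. Across the 35 carriers the log2 difference in the 6 libraries had a Spearman correlation of -0.62 with transcript GC content. It was -0.68 without DMSO replicate 3, -0.17 against DMSO replicate 3 alone and -0.10 with the trend removed. The difference between DMSO replicate 3 and the other controls had a correlation of -0.84. These are descriptions across genes of shared libraries, which are not independent replicates.

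**Figure D4:**
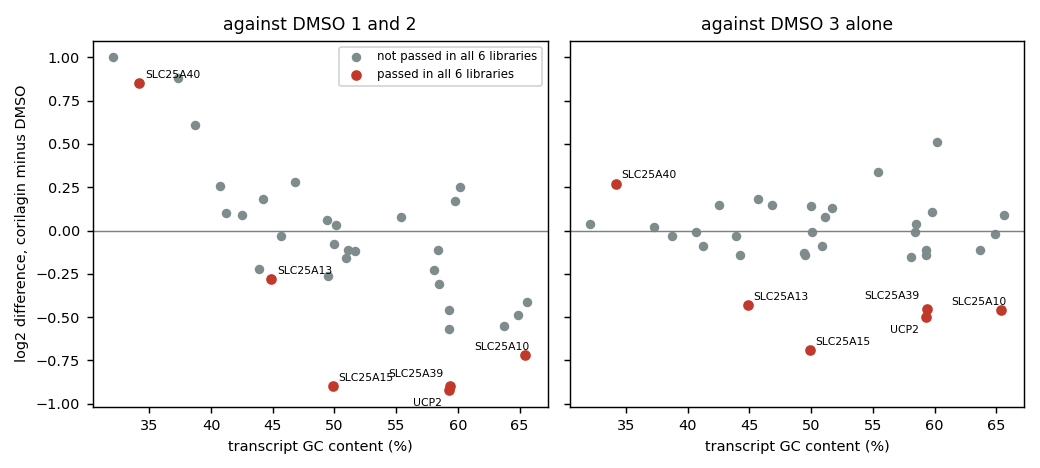
Log2 difference of 34 of the 35 carriers against transcript GC content in percent, with corilagin compared with DMSO replicates 1 and 2 (left) and with DMSO replicate 3 alone (right). Red points are the 6 carriers that passed in all 6 libraries. The downward slope on the left is nearly gone on the right, where SLC25A15, UCP2, SLC25A10, SLC25A39 and SLC25A13 remain at -0.69 to -0.43.

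Ratios within a library compare related carriers without a scale between libraries. The GC trend stays in a ratio where the transcripts differ in GC content, as SLC25A40 (34.2%) and SLC25A39 (59.4%) do. SLC25A40 over SLC25A39 was 1.19, 1.30 and 1.22 with corilagin and 0.341, 0.349 and 0.730 with DMSO, so SLC25A40 was the more abundant of the 2 in every corilagin library and the less abundant in every control. SLC25A13 over SLC25A12 was 2.16, 2.35 and 2.03 with corilagin and 3.20, 3.09 and 2.68 with DMSO. SLC25A37 over SLC25A28 was 2.01, 1.91 and 1.85 against 1.56, 1.60 and 1.73. In these 3 pairs the groups did not overlap, with p = 0.1 each in a 2-sided exact permutation test, the smallest that 3 against 3 libraries allow, and 0.2 after Benjamini-Hochberg adjustment over the 6 pairs computed. The remaining pairs, SLC25A24 over SLC25A23, SLC25A36 over SLC25A33 and SLC25A6 over SLC25A5, had p = 0.400 each by the exact test. In them DMSO replicate 3 lay on the far side of the corilagin libraries from DMSO replicates 1 and 2. The pairs were chosen after values were seen, and a ratio shows unequal change only.

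**Figure D5:**
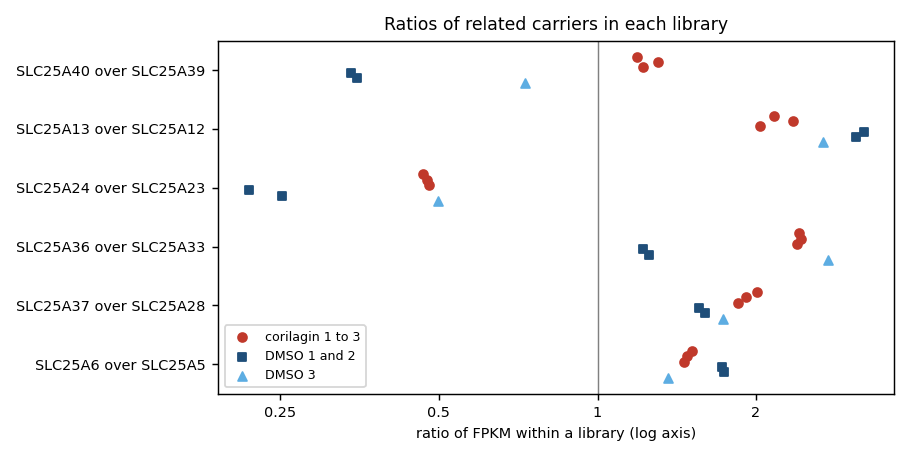
Ratio of FPKM between related carriers within each library, on a log axis with a line at 1. Circles are corilagin, squares DMSO replicates 1 and 2, and triangles DMSO replicate 3. The SLC25A40 over SLC25A39 ratio is above 1 in the 3 corilagin libraries and below 1 in the 3 DMSO libraries. The GC trend was not removed.

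The sequences before the start sites of 3 of the 5 lower carriers are shown. They come from RefSeq (GRCh38.p14), where 29 of the 35 members matched by symbol, with 37 promoters. Each is given 5′ to 3′ on the gene's strand and covers the part of the 250 bases upstream that lies outside annotated exons. The SLC25A13 stretch is chr7:96322148-96322348 on the minus strand, with an E-box (CACGTG, bound by MYC and its relatives) in capitals, starting at position -154 from the start site. A CCAAT box in the same promoter runs past the end of the printed stretch and is not marked. The UCP2 stretch is chr11:73983308-73983452 on the minus strand, with 2 CCAAT boxes in capitals, starting at -192 and -157, the first of them read on the opposite strand as ATTGG. The SLC25A15 stretch is chr13:40789361-40789411 on the plus strand, and holds none of the motifs searched. The stretches of SLC25A39 and SLC25A10, the other lower carriers, also hold none and are not printed.
SLC25A13: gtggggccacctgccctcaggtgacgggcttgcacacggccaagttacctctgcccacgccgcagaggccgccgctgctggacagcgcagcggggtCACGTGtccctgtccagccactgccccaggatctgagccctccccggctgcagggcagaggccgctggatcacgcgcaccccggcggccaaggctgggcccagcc
UCP2: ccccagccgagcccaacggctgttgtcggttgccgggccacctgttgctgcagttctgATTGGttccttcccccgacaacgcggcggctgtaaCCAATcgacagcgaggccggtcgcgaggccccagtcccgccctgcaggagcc
SLC25A15: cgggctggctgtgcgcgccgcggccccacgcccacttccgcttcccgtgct

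The motifs were searched on both strands over the whole 250 bases of each promoter. The E-box CACGTG was in 16.2% of the members' promoters (6 of 37) and in 6.3% of all 35116 promoters, in SLC25A13, SLC25A33, SLC25A36, SLC25A38, SLC25A46 and SLC25A51. CCAAT was in 45.9% (17 of 37) and 32.0%, and the cAMP response element TGACGTCA in 8.1% (SLC25A25, SLC25A33 and SLC25A36) and 1.6%. The C/EBP-ATF composite TGATGNAA was in 2.7% (SLC25A11) and 3.1%. Of the 6 members with an E-box, SLC25A13 alone passed in the 6 libraries. A match describes letters in a window and says nothing of binding.

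Of 12 tested genes listed for the import of carriers, limma called 8 lower (66.7%, beside 13.5% of all genes) and none higher (beside 11.9%) as deposited. Whether each listed gene serves every carrier was not examined. The median log2 difference was -0.44, and none was higher at an unadjusted p under 0.05. Against DMSO replicate 3 alone the median was -0.29. There were 9 lower with the GC trend removed (75.0%, beside 23.0%) and 7 by limma-voom (beside 1323 of all 9868 genes). The count fell to 1 without any 1 corilagin library (8.33%, beside 1.78 to 2.06% of all genes), to 3 without DMSO replicate 1 (beside 4.89%) and to 2 without DMSO replicate 2 (beside 3.02%), and TIMM13 was the 1 gene that passed each time. The small TIM chaperone TIMM13 was at 26.7, 27.8 and 26.8 FPKM with corilagin and 51.9, 54.8 and 42.3 FPKM with DMSO (log2 difference -0.84, limma adjusted p = 0.00457). TOMM40, the channel of the outer membrane, was at 32.6, 31.7 and 30.9 FPKM with corilagin and 62.0, 60.4 and 45.1 FPKM with DMSO (log2 difference -0.78, limma adjusted p = 0.00936). The groups overlapped in neither gene. TIMM22, the insertase that receives the carriers, was at 5.09 to 5.80 FPKM with corilagin and 6.65 to 10.5 FPKM with DMSO (log2 difference -0.57, limma adjusted p = 0.0352). With the GC trend removed TIMM13, TOMM40 and TIMM22 were at -0.61, -0.60 and -0.48. They were at -0.62, -0.50 and -0.27 against DMSO replicate 3 alone. The receptors TOMM20 and TOMM70 and the chaperones TIMM9 and TIMM10B did not pass as deposited, and AGK was below the filter. Without DMSO replicate 3, TOMM20 and TOMM70 were higher (16.7%, beside 40.8% of all genes) and 8 genes were lower (66.7%, beside 36.5%). Whether the import genes and the carriers differ in how often they were lower was not tested.

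Other transporters of the mitochondrial membranes gave 7 lower (30.4%, beside 13.5% of all genes) and none higher (beside 11.9%) of 23 tested by limma, with a median of -0.16. Limma-voom gave the same counts, beside 1323 lower and 1237 higher of all 9868 genes. At an unadjusted p under 0.05, 1 was higher, with no share of all genes given for that threshold. There were 10 lower (43.5%) both with the GC trend removed (beside 23.0%) and against DMSO replicate 3 alone (beside 18.6%). The count lower was 1 without any 1 corilagin library (4.35%, beside 1.78 to 2.06% of all genes) and 5 without DMSO replicate 1 (21.7%, beside 4.89%). It was 2 without DMSO replicate 2 (8.70%, beside 3.02%) and 14 without DMSO replicate 3 (60.9%, beside 36.5%), and SFXN4 passed each time. Higher were 1 with the GC trend removed (4.35%, beside 21.4%) and 5 without DMSO replicate 3 (21.7%, beside 40.8%). TSPO, an outer membrane protein that binds porphyrins and cholesterol, and SFXN4, of the sideroflexin family, had the largest falls as deposited (log2 differences -0.84 and -0.73, limma adjusted p = 0.0125 and 0.00373). They were -0.61 and -0.73 with the GC trend taken out, where MTCH2, a carrier relative of the outer membrane, was lower still at -0.80, and -0.49 and -0.68 against DMSO replicate 3 alone.

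Among 16 tested enzymes on either side of the shuttles, 3 were lower (18.8%, beside 13.5% of all genes) and 1 was higher (6.25%, beside 11.9%), so the counts were near the background. The lower ones were GOT2 (log2 difference -0.77, limma adjusted p = 0.0101) and MDH2 (-0.70, limma adjusted p = 0.0128), the matrix aminotransferase and malate dehydrogenase of the malate-aspartate shuttle, and citrate synthase CS (-0.49, limma adjusted p = 0.0225). Against DMSO replicate 3 alone they were -0.48, -0.41 and -0.26. None of the 3 passed without any 1 corilagin library, where 1.78 to 2.06% of all genes were lower. The cytosolic counterparts of GOT2 and MDH2 did not pass as deposited, with log2 differences of 0.31 for GOT1 and 0.11 for MDH1. GOT1 was higher with the GC trend taken out (0.41, limma adjusted p = 0.00160) and against DMSO replicate 3 alone (0.45, limma adjusted p = 0.00208), and MDH1 passed in neither. The higher one was ME1, cytosolic malic enzyme, at 4.33, 4.23 and 3.81 FPKM with corilagin and 1.89, 1.75 and 1.84 FPKM with DMSO, where DMSO replicate 3 lay among the other controls (log2 difference 0.86, limma adjusted p = 0.00198, and 0.48 with the GC trend removed). With the GC trend removed the list had 5 lower (31.2%, beside 23.0%) and 3 higher (18.8%, beside 21.4%).

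Of 13 tested one-carbon and haem genes that use what carriers deliver, 4 were lower (30.8%, beside 13.5% of all genes) and 2 higher (15.4%, beside 11.9%). Without any 1 corilagin library 1 was lower, MTHFD1L (7.69%, beside 1.78 to 2.06% of all genes). The 1 higher was MTHFD2 (7.69%, beside 1.33 to 1.53%). MTHFD2, the matrix one-carbon dehydrogenase, was at 29.6, 27.0 and 29.4 FPKM with corilagin and 17.5, 17.6 and 18.4 FPKM with DMSO (log2 difference 0.65, limma adjusted p = 0.00373, and 0.37 with the GC trend taken out, limma adjusted p = 0.0183). ALAS1, the first enzyme of haem synthesis, which uses glycine inside the matrix, was at 77.3, 78.6 and 73.6 FPKM with corilagin and 58.7, 55.9 and 47.8 FPKM with DMSO (log2 difference 0.49, limma adjusted p = 0.0147). Both rises were without overlap. The lower ones were COASY (-0.78), MTHFD1L (-0.72), FLAD1 (-0.65) and NFS1 (-0.43), and COASY, which makes coenzyme A, was at 22.2 to 23.2 FPKM with corilagin and 32.9 to 44.3 FPKM with DMSO. With the GC trend removed 7 of the 13 were lower (53.8%, beside 23.0%) and 3 higher (23.1%, beside 21.4%).

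The 14 family genes below the filter were not tested. SLC25A26, the S-adenosylmethionine carrier, was at 0.903 to 1.11 FPKM, and the folate and FAD carrier SLC25A32 at 0.355 to 0.831 FPKM, with 69.7% of its exon bases shared with another gene on the same strand. SLC25A4, SLC25A18, SLC25A34, SLC25A45, SLC25A48 and SLC25A53 had fragments in every library at up to 0.538 FPKM. SLC25A2, SLC25A47 and SLC25A52 were at 0 in at least 1 library and at no more than 0.0772 FPKM in any. SLC25A21, SLC25A27 and the testis ADP/ATP carrier SLC25A31 had no fragment in any library, which allows up to 3 fragments per library by counting error alone.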

How the data were processed

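Poly(A) RNA of MV411 cells was read in pairs of 150 bases, per the labels' protocols. The authors deposited 1 table of FPKM for 6 libraries, and fastp 0.22.0, HISAT2 2.1.0, HTSeq 0.9.1, DESeq 1.38.3 and the build GRCh38 are listed, with no settings, in the submitters' processing notes. Symbols matched 20011 of the 20036 identifiers, and coordinates and transcript GC content came from GENCODE release 29. Whole fragments per gene were recovered from the steps of the FPKM values for all 15921 genes above 0, and gave the library totals. Even the most alike pair (corilagin replicates 1 and 2) had a chi-square of 2.48 per gene between their counts, above the 1 that sampling alone gives. Groups were compared by limma 3.58.1 under R 4.3.3 (lmFit, then eBayes with a trend, 2-sided) on log2(FPKM + 1), which understates the change of low genes, for 9868 genes with a mean of at least 1. It was tested on simulated data. The GC trend was removed in each library by a natural spline with 5 degrees of freedom over 9859 genes, which also takes out any true difference that follows GC content. Alternatives were other pseudocounts, filters, scalings and fits, limma-voom on the fragments, and leaving out each library. All carriers above the filter are named except 1, which is counted but not reported here. Values in each library are given for those that passed, the most abundant of each class and close paralogs of either. In other lists up to 2 rises and 2 falls, and counts of 5 or fewer, are named, and TIMM22, MTCH2, GOT1 and MDH1 were added after their values were seen. The members, classes, lists and tests were chosen with earlier results of these data known. Sequences came from RefSeq.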

Additional observations from a re-analysis of the deposited data

How the results depend on the processing

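The 6 called members kept their direction in every alternative that tested them, and SLC25A15 passed in all. SLC25A10 was not tested with a mean of at least 5. Leaving out 1 library at a time gave 0 to 8 members higher and 1 to 15 lower, and 131 to 4030 genes higher and 176 to 3597 lower of all tested, with the high ends without DMSO replicate 3. Only SLC25A15 passed without any 1 corilagin library. The class medians then ran from -0.22 to -0.12 (adenine nucleotide and phosphate), -0.12 to -0.06 (amino acid), 0.04 to 0.09 (cofactor), -0.11 to -0.08 (metal ion and glutathione), -0.49 to -0.25 (organic acid), 0.10 to 0.26 (uncoupling protein branch) and -0.07 to 0.06 (no settled substrate). The difference in the SLC25A6 share ran from -3.66 to -0.733 percentage points, and was 2.08 against DMSO replicate 3 alone.

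Counts of members higher were 0 with no filter (SLC25A40, limma adjusted p = 0.0507), 2 with equal library sums, 2 with the GC trend removed, 3 with library means kept (an alternative added after the data were seen) and 4 against DMSO replicate 3 alone. Counts lower were 10 with the GC trend removed and 8 with means kept. Genes higher of all tested were 713 with a mean of at least 5, 2113 with the GC trend removed, 2575 with means kept and 1916 against DMSO replicate 3 alone. Genes lower were 2267 with the GC trend removed. Equal library sums moved the median of all genes from 0.03 to 0.14 and gave 1620 higher and 1059 lower (60.5% higher, beside 46.8% as deposited), and with means kept 58.5% of the calls were higher. Limma-voom on the recovered fragments shared all 6 member calls and made no other.

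Class medians moved as follows. With equal library sums they were -0.04 (adenine), 0.03 (amino acid), 0.15 (cofactor), 0.02 (metal) and 0.10 (no settled substrate), and with quantile normalization -0.06, -0.16, -0.02 and -0.11 for the first 4. Median-of-ratios scaling gave -0.11 (metal). With the GC trend removed they were -0.01 (adenine), -0.06 (cofactor), 0.03 (metal), -0.11 (organic acid) and -0.15 (uncoupling), and with means kept 0.04, -0.01, 0.08, -0.06 and -0.10, and -0.01 for amino acid. Against DMSO replicate 3 alone they were -0.02 (adenine), -0.01 (organic acid), -0.01 (uncoupling) and -0.13 (no settled substrate). A mean of at least 5 gave 0.34 (no settled substrate) and -0.78 (uncoupling, where UCP2 alone remains). Members called in neither fit changed sign 12 times with the GC trend removed and 10 times against DMSO replicate 3 alone. The cause of these shifts was not tested.

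The check used could not decide whether the replicate numbers pair the samples. Deviations of equal numbers correlated at 0.28, 0.079 and 0.339, each the highest for its corilagin replicate. DMSO replicates 1 and 2 were hardly told apart, at 0.28 and 0.279 with corilagin replicate 1. DMSO replicate 2 correlated best with corilagin replicate 1. A fit with the replicate block gave 1 member higher and 8 lower, adding SLC25A11, SLC25A22 and SLC25A35, and 1547 genes higher and 1330 lower (53.8% higher). With the GC trend removed and the replicate block, 2 members were higher and 9 lower, with 2105 genes higher and 2207 lower, and class medians of -0.01 (adenine), -0.06 (cofactor), 0.03 (metal), -0.11 (organic acid) and -0.15 (uncoupling). SLC25A16 there was lower (-0.26, limma adjusted p = 0.0317), beside 0.04 as deposited. Depth limits SLC25A41 and SLC25A10 most.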
